A study of Mus musculus with 48 samples.

Results

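The Slc22 organic anion and cation transporters described here are 9 mouse genes, Slc22a3, Slc22a7, Slc22a18, Slc22a23, Slc22a26, Slc22a27, Slc22a28, Slc22a29 and Slc22a30, whose liver expression was read from one table of 35556 probesets with 1 array per mouse. Members were found by gene symbol in the annotation of the array, out of 19938 genes that had a probeset of their own. Of these, 7 had 1 probeset each, Slc22a7, Slc22a18, Slc22a23, Slc22a26, Slc22a27, Slc22a29 and Slc22a30. Slc22a28 was annotated only on a probeset that 3 genes share, Slc22a28, Slc22a29 and Slc22a30, and that probeset is given as the shared probeset because it names no single gene. Slc22a3 had no probeset under its own name and was not analysed here. These 8 probesets therefore stand for 8 of the 9 genes. The exact values that the genes were chosen by are not recorded. The choice was made with the log2 differences between KO and WT mice and between VPA and saline mice on these same arrays known, so both comparisons count as used and are given as descriptions without a p-value for the members.

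Each array (Affymetrix Mouse Gene ST) held liver RNA of 1 male mouse, with 48 mice in all and 8 in each of 6 groups. Mice were homozygous Wfs1 -/- (KO), heterozygous Wfs1 +/- (HZ) or wild type Wfs1 +/+ (WT), and each genotype received either valproic acid (VPA, 300 mg/kg daily, intraperitoneal) or the vehicle (saline, 10 mL/kg) over 12 weeks. Treatment began at 4 to 6 weeks of age and the liver was taken at 16 to 18 weeks, 48 hours after the final injection and 24 hours after every mouse had been given glucose in a tolerance test. The groups are KO VPA, KO saline, HZ VPA, HZ saline, WT VPA and WT saline, and the mutant allele lacks 2 of the exons of Wfs1 and keeps the rest.

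SLC22 proteins are carriers of the plasma membrane that move organic anions, cations and zwitterions such as bile acids, steroid conjugates, carnitine, nucleotides and many drugs into or out of cells. Hepatocytes and kidney tubule cells use them to clear such compounds from blood, and rodents carry a tandem array of closely related anion transporter genes that humans lack. In mouse liver, many genes of drug and steroid metabolism differ between the sexes, under the control of the pattern of growth hormone release and the factor STAT5B, and valproic acid is itself an organic anion.

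The 5 genes Slc22a26, Slc22a27, Slc22a28, Slc22a29 and Slc22a30 stand side by side on chromosome 19. In the RefSeq annotation of build GRCm38.p6 they fill 625 kb, chr19:7780094-8405111, and are the only 5 protein-coding genes that lie wholly in that interval. Slc22a7 lies at chr17:46432185-46438477, Slc22a18 at chr7:143473726-143499334, Slc22a23 at chr13:34179158-34345275 and Slc22a3 at chr17:12419972-12507704. The promoters of the cluster are shown because the genes that moved and the genes that did not are neighbours in it. Each is the 250 bases before the start of the gene as the RefSeq promoter table places it (GRCm38.p6), written 5′ to 3′ on the strand of the gene. For Slc22a27 and Slc22a29 that start lies inside the gene interval, so other starts of these genes are not shown. Capitals mark matches to the motifs searched.
Slc22a26 (chr19:7802668-7802917, minus strand): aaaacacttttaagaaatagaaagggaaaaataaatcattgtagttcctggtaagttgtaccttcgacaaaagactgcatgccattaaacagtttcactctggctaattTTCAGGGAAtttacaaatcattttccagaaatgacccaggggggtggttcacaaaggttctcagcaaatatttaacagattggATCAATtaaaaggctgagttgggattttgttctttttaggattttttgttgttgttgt
Slc22a27 (chr19:7966028-7966277, minus strand): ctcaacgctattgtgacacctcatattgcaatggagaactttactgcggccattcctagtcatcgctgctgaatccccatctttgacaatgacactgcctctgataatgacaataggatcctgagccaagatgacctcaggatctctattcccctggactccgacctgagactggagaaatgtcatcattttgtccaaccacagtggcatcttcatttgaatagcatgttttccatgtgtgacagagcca
Slc22a28 (chr19:8131983-8132232, minus strand): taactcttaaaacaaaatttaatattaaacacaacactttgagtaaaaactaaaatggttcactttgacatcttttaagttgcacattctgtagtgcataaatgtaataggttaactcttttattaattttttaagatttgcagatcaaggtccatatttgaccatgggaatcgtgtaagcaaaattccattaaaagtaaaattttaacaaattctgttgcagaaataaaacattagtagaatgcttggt
Slc22a29 (chr19:8218901-8219150, minus strand): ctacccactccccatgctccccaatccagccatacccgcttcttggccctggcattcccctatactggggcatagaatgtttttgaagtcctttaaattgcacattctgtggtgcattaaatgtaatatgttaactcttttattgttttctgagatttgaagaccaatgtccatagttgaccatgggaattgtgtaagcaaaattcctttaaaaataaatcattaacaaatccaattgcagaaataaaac
Slc22a30 (chr19:8405106-8405355, minus strand): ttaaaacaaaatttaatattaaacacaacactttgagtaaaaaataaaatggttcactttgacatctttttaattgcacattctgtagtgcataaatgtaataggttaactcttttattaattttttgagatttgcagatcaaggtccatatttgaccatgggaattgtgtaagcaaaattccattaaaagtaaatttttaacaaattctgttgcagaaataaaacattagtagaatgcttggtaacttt

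The letters of 6 motifs were searched on both strands: STAT5 (TTCNNNGAA), ONECUT (ATTGAT), FOXA (TGTTTAC), HNF4 (CAAAGTCCA), the E-box (CACGTG) and the D-box (TTATGTAA or TTACGTAA). Of the 5 cluster promoters, Slc22a26 alone held matches, a STAT5 motif, TTCAGGGAA, 133 to 141 bases before the start, and an ONECUT motif, read as ATCAAT on the strand shown, 53 to 58 bases before it. Over the 32851 promoters of the same length in the table, 7.02% held the STAT5 letters, which the repressor BCL6 can also bind, and 6.72% the ONECUT letters. The other motifs were held by 3.17% (FOXA), 0.384% (HNF4), 6.02% (E-box) and 0.931% (D-box) of promoters. Slc22a18 held 1 ONECUT match, 158 to 163 bases before its start, and Slc22a23 held none of the 6 motifs. In local alignments the promoters of Slc22a28 and Slc22a30 were identical at 238 of 244 aligned bases (97.5%), and that of Slc22a29 matched Slc22a30 at 158 of 178 bases (88.8%). Slc22a26 was more distant, with 122 of 173 bases shared with Slc22a30 (70.5%), and Slc22a27 aligned with the other 4 over at most 39 bases. With genes this alike, transcripts of one copy may bind probes of another. The probe sequences were not analysed here.

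Slc22a26, an orphan carrier of the organic anion branch of the family, was high in the liver of most KO mice and low in WT mice. The values are log2 expression after RMA normalisation, so 1 unit is a 2-fold difference. In KO mice given VPA they ran from 6.52 through a median of 9.04 to 11.25, and in KO saline mice from 6.58 through 11.00 to 11.90. HZ VPA mice ran from 5.84 through 6.63 to 8.37 and HZ saline mice from 5.78 through 6.86 to 9.23. WT VPA mice ran from 5.71 through 6.38 to 6.95 and WT saline mice from 5.72 through 6.81 to 8.54. The groups overlapped at their edges, with 7 of 8 KO VPA mice above every WT VPA mouse and 6 of 8 KO saline mice above every WT saline mouse. The KO minus WT difference over both treatments was 2.97 (SE 0.42, 7.83-fold), and 15 of 16 KO mice exceeded the mean of the WT mice given the same treatment. It was 2.55 among VPA mice and 3.39 among saline mice.

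Slc22a27 is the next gene along the chromosome and an organic anion transporter best studied in mouse kidney. Within each treatment its medians had the same order of genotypes, KO highest and WT lowest. Its values ran from 6.23 through 7.52 to 9.57 in KO VPA mice and from 5.62 through 8.64 to 10.31 in KO saline mice. HZ VPA mice ran from 5.22 through 5.55 to 7.14 and HZ saline mice from 5.14 through 5.81 to 7.61. WT VPA mice ran from 4.85 through 5.36 to 6.09 and WT saline mice from 4.92 through 5.46 to 6.59. All 8 KO VPA mice were above every WT VPA mouse, and 7 of 8 KO saline mice were above every WT saline mouse. KO minus WT was 2.60 (SE 0.33, 6.06-fold), with 16 of 16 KO mice above the mean of the like-treated WT mice. The difference was 2.44 in VPA mice and 2.76 in saline mice.

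Slc22a29, another anion transporter of the cluster, moved the same way over a much narrower range. Its probeset was dim, with a mean of 5.93 that exceeded 29.6% of all probesets. Whether transcripts of a neighbouring copy added to this signal was not tested. KO VPA mice ran from 5.56 through 6.19 to 7.06 and KO saline mice from 5.79 through 6.42 to 7.16. HZ mice lay between 5.51 and 6.13 and WT mice between 5.32 and 6.03 over both treatments. Of the KO VPA mice, 7 of 8 exceeded every WT VPA mouse, and 5 of 8 KO saline mice exceeded every WT saline mouse. The KO minus WT difference was 0.60 (SE 0.10, 1.51-fold), nearly equal in VPA mice (0.60) and saline mice (0.59), with 15 of 16 KO mice above the mean of like-treated WT mice.

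**Figure D1:**
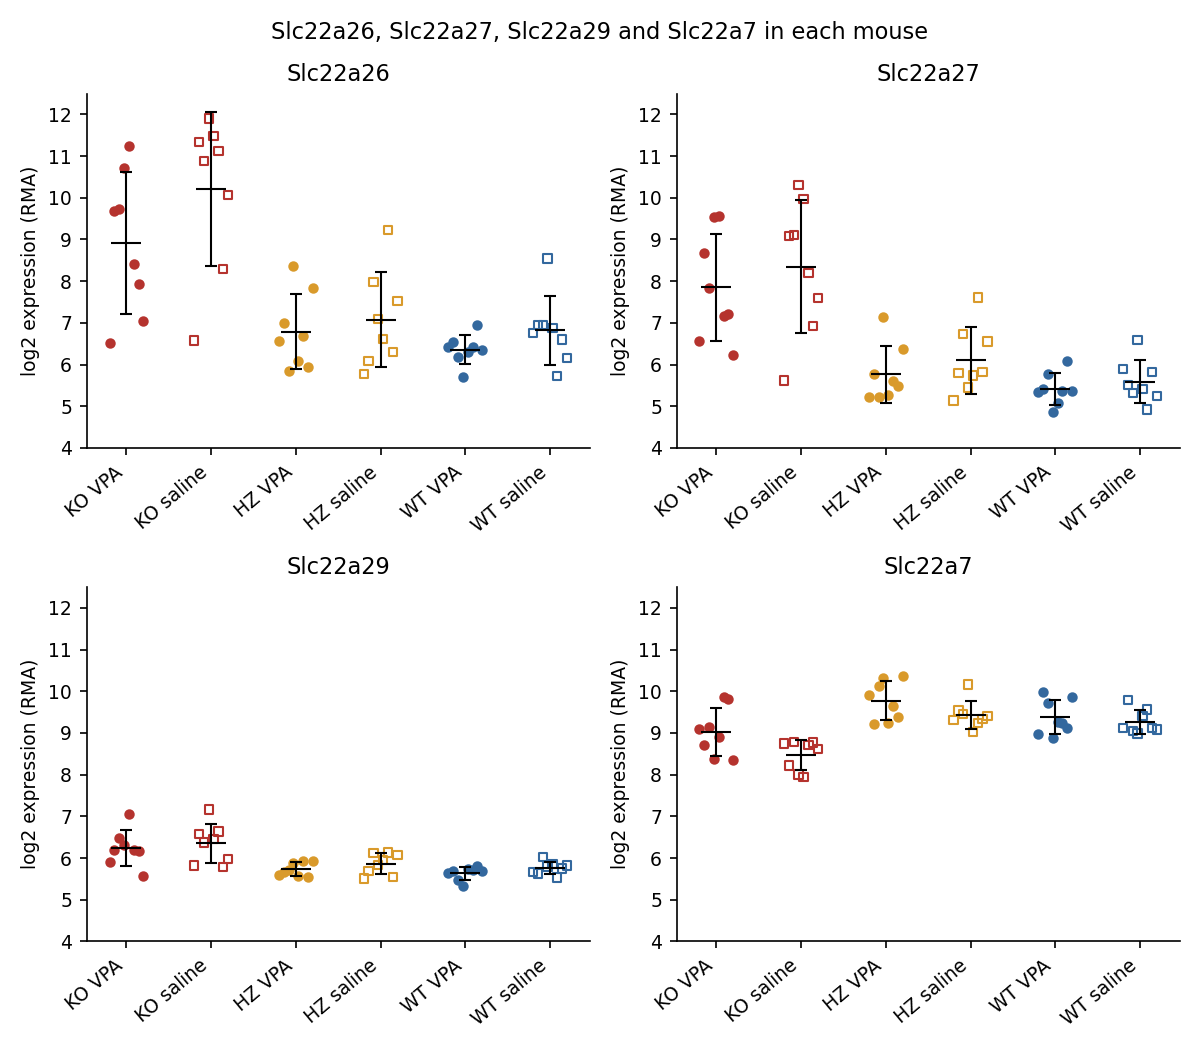
Log2 expression (RMA, vertical axes, one common scale) of Slc22a26, Slc22a27, Slc22a29 and Slc22a7 in each of the 48 mice, by group (8 mice each, VPA filled circles, saline open squares), where a bar marks the group mean and whiskers its SD. KO mice spread from 6.52 to 11.90 for Slc22a26 while WT mice stay between 5.71 and 8.54, and all 8 KO saline mice lie below all 8 WT saline mice for Slc22a7.

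The other probesets of the cluster had smaller KO minus WT differences, of the opposite sign. The shared probeset of Slc22a28, Slc22a29 and Slc22a30 ran from 10.91 through 11.63 to 11.86 in KO VPA mice, from 11.48 through 11.70 to 12.00 in KO saline mice, and from 11.49 to 12.07 over all 16 WT mice. The difference of KO minus WT was -0.20 (SE 0.07), with 12 of 16 KO mice under the mean of like-treated WT mice, and 2 of 8 KO mice of each treatment below every WT mouse of that treatment. Slc22a30 ran from 10.40 through 11.16 to 11.33 in KO VPA mice and from 11.06 through 11.32 to 11.50 in KO saline mice, against 10.83 to 11.65 over the WT mice. Its KO minus WT difference was -0.14 (SE 0.08), with -0.27 in VPA mice, where all 8 KO mice were below the WT mean, and 0.00 in saline mice, where 4 of 8 were.

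Slc22a7, the organic anion transporter OAT2 of the hepatocyte's blood-facing membrane, which carries prostaglandins, cyclic nucleotides and orotate, ran opposite to Slc22a26, Slc22a27 and Slc22a29. Its values were 8.34 through 9.00 to 9.85 in KO VPA mice and 7.95 through 8.66 to 8.79 in KO saline mice. HZ VPA mice ran from 9.21 through 9.77 to 10.37 and HZ saline mice from 9.03 through 9.36 to 10.16. WT VPA mice ran from 8.89 through 9.25 to 9.98 and WT saline mice from 8.99 through 9.12 to 9.79. All 8 KO saline mice were below every WT saline mouse and below every HZ saline mouse, whereas KO VPA mice overlapped WT VPA mice, with 3 of 8 below all of them. KO minus WT was -0.57 (SE 0.14), a 1.48-fold lower level, with 14 of 16 KO mice under the mean of like-treated WT mice. The difference was -0.79 in saline mice and -0.35 in VPA mice.

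Slc22a18, an imprinted gene of distal chromosome 7 that codes for a putative cation carrier, and Slc22a23, an orphan member, differed little between genotypes. Slc22a18 lay between 10.57 and 11.48 in KO mice, between 10.64 and 11.66 in HZ mice and between 10.59 and 11.53 in WT mice, and KO minus WT was -0.02 (SE 0.09, interval -0.20 to 0.16). Slc22a23 lay between 10.51 and 10.87 in KO mice, between 10.36 and 10.77 in HZ mice and between 10.35 and 10.81 in WT mice, and KO minus WT was 0.07 (SE 0.05, interval -0.02 to 0.16). These 95% intervals exclude differences of the size of those of Slc22a26, Slc22a27, Slc22a29 and Slc22a7.

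**Figure D2:**
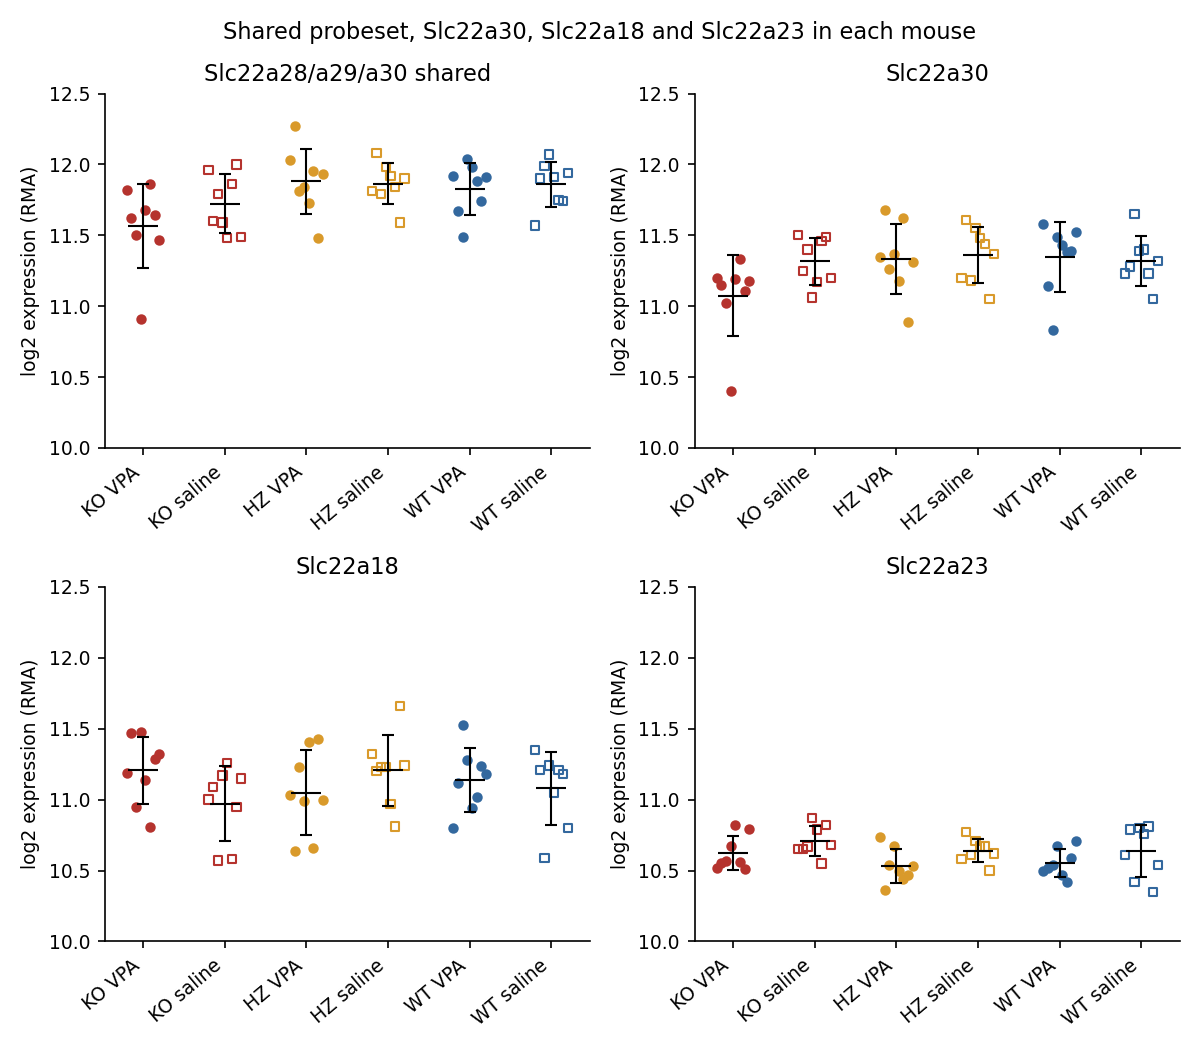
Log2 expression (RMA, vertical axes, one common scale that starts at 10) of the shared probeset of Slc22a28, Slc22a29 and Slc22a30, of Slc22a30, of Slc22a18 and of Slc22a23 in each of the 48 mice by group (8 mice each), where a bar marks the group mean and whiskers its SD. The groups overlap in every panel, and the 1 KO VPA mouse at 10.91 for the shared probeset and 10.40 for Slc22a30 is replicate 4.

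With limma over all 48 mice and Benjamini-Hochberg adjustment over the 35556 probesets, 4 of the 8 probesets passed an adjusted p of 0.05 in KO against WT, Slc22a26, Slc22a27 and Slc22a29 higher and Slc22a7 lower, where 2.94% of all probesets passed (1.37% higher and 1.57% lower). Among saline mice the same 4 passed (0.79% of all probesets), and among VPA mice 3 passed, Slc22a26, Slc22a27 and Slc22a29 (0.405%). The median KO minus WT difference was 0.03 over the 8 probesets and 0.01 over all probesets. As the genes were selected with this comparison known, nothing is read from these shares. Each p measures the spread between mice of a group, and in whole liver a change in the share of a cell type cannot be told apart from a change in RNA per cell. KO minus HZ, which uses the same KO mice, passed for the same 4 members (1.44% of all probesets), at 2.62 for Slc22a26, 2.17 for Slc22a27, 0.50 for Slc22a29 and -0.85 for Slc22a7.

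**Figure D3:**
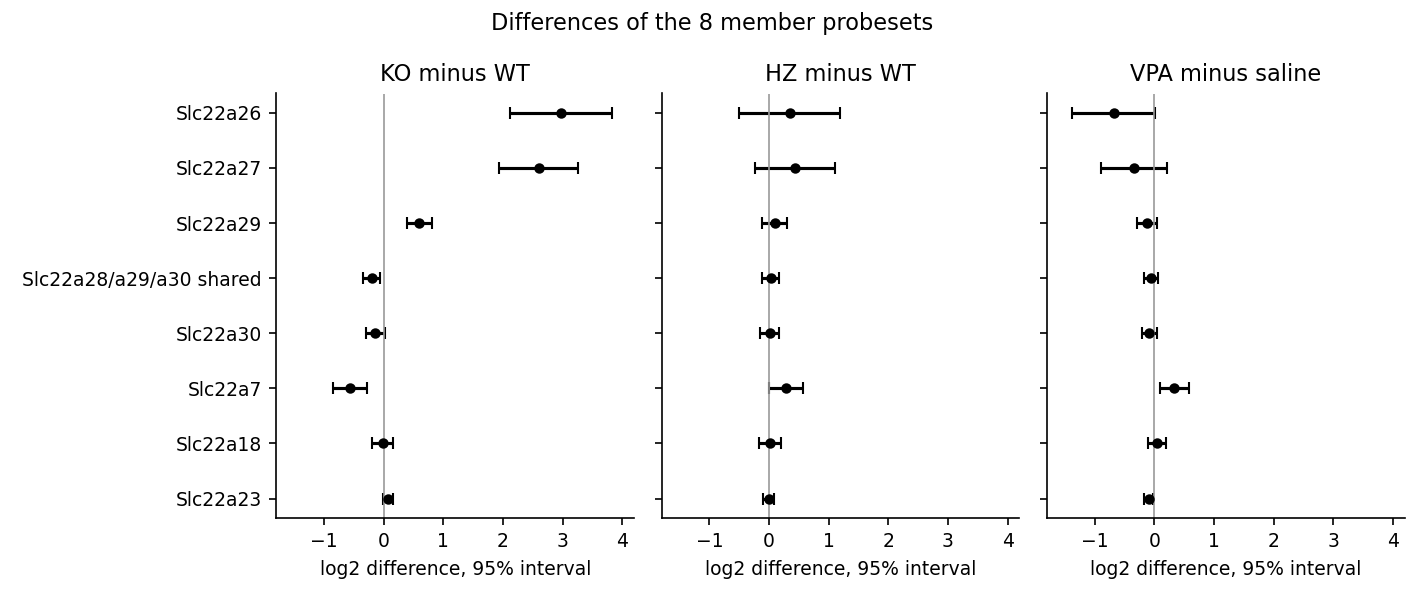
Log2 differences of the 8 member probesets (rows) with 95% intervals from limma over 48 mice, for KO minus WT, HZ minus WT and VPA minus saline, on one horizontal scale. Slc22a26 (2.97), Slc22a27 (2.60) and Slc22a29 (0.60) lie to the right of 0 and Slc22a7 (-0.57) to the left of it for KO minus WT, and every interval for HZ minus WT includes 0.

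The 16 other Slc22 probesets give the range of the rest of the family. None of the 16 passed in KO against WT, where 2.94% of all probesets passed, so nothing is read from this count. Their mean signal ran from 4.33 to 8.68, and a fall would be hard to see in the dimmest. The 3 with the highest mean signal were Slc22a5, the carnitine transporter OCTN2, with a KO minus WT difference of -0.06 (SE 0.10), Slc22a15, with -0.05 (SE 0.07), and Slc22a12, the urate transporter URAT1, with -0.05 (SE 0.05). Slc22a19, the gene just outside the cluster at chr19:7673075-7711310, is a kidney anion transporter and averaged 4.37 in KO VPA mice, 4.30 in KO saline mice, 4.36 in WT VPA mice and 4.30 in WT saline mice.

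**Figure D4:**
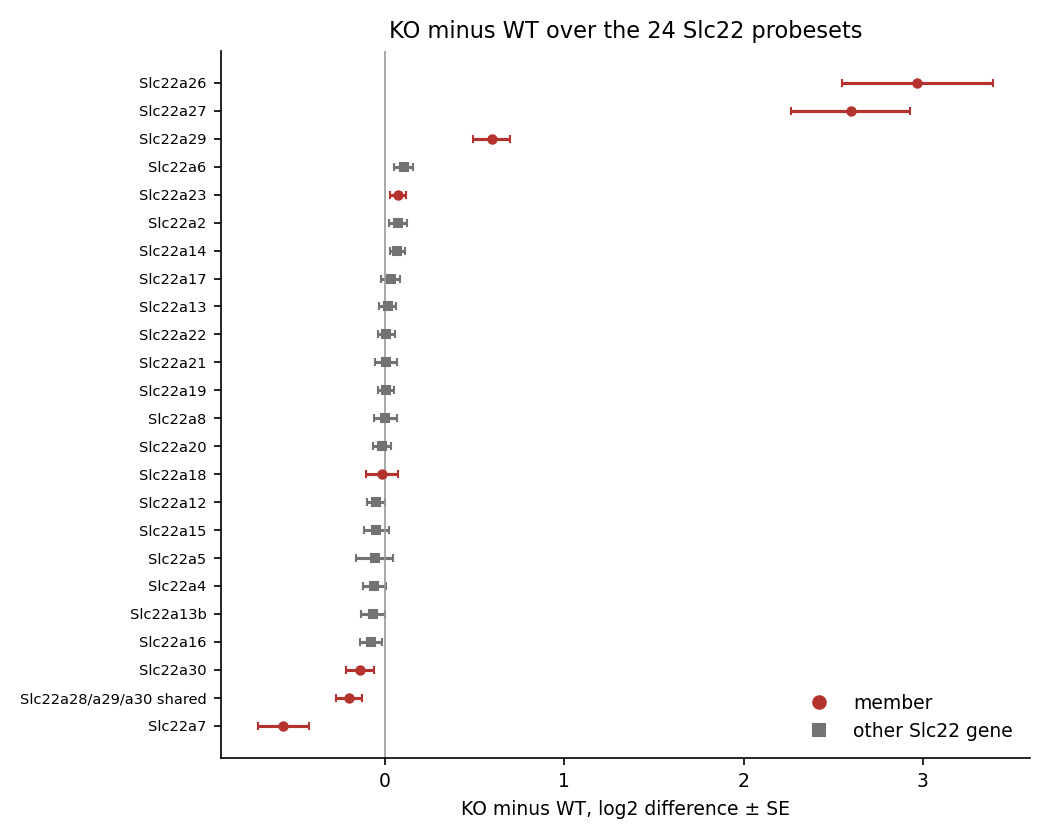
KO minus WT log2 difference (horizontal axis) with its SE for the 24 Slc22 probesets (rows, sorted by difference), members as red circles and the 16 other Slc22 genes as grey squares. Slc22a26 (2.97) and Slc22a27 (2.60) stand far to the right and Slc22a7 (-0.57) lies lowest, while the 16 other genes lie close to 0.

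HZ mice address whether 1 mutant allele is enough. This comparison was not counted as used in choosing the genes, though that choice is not recorded, and it shares the 16 WT mice with KO against WT. None of the 8 probesets passed in HZ against WT, where 1 of 35556 passed (0.00281%). An unadjusted p under 0.05 was reached by 0 of the 8 members and by 1919 probesets in all. HZ minus WT was 0.35 for Slc22a26 (interval -0.51 to 1.20, adjusted p = 0.992 by limma), 0.43 for Slc22a27 (-0.24 to 1.10, adjusted p = 0.986) and 0.10 for Slc22a29 (-0.11 to 0.31, adjusted p = 0.990). For Slc22a7 it was 0.28 (interval -0.01 to 0.57, adjusted p = 0.911 by limma), so that HZ mice averaged above WT mice where KO mice were below them, with 12 of 16 HZ mice above the mean of like-treated WT mice. The other 4 probesets had differences between -0.01 and 0.03 and an adjusted p of 0.999 by limma. These limma values use 1 spread over the 6 groups, which the widely spread KO mice enlarge for Slc22a26, Slc22a27 and Slc22a29. Exact two-sided permutation tests of HZ against WT within each treatment, 16 tests over 12870 splits each, gave no adjusted p under 0.05, and the lowest exact p was 0.0976 for Slc22a7 in VPA mice (9.77 in HZ and 9.38 in WT, adjusted p = 0.692). A few HZ mice stood high. Replicate 6 of HZ saline had 9.23 for Slc22a26 and 7.61 for Slc22a27, and replicate 4 of HZ VPA had 8.37 and 7.14.

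Setting HZ mice against the midpoint of KO and WT mice asked whether they sat halfway. In this balanced layout the contrast is uncorrelated with KO minus WT only where KO and WT mice spread alike. They did not for Slc22a26 (SD 1.71 in KO VPA and 0.35 in WT VPA mice, 1.85 in KO saline and 0.82 in WT saline mice). Nor did they for Slc22a27 (1.29 and 0.38, 1.59 and 0.51) or Slc22a29 (0.44 and 0.16, 0.47 and 0.15, in the same order). For these genes the midpoint contrast is therefore tied to the comparison counted as used. No member passed, where 2 of 35556 probesets did (0.00562%). An unadjusted p under 0.05 was reached by 5 of the 8 members and by 2013 probesets in all. Slc22a7 came closest, with HZ mice 0.57 above the midpoint (SE 0.12, interval 0.32 to 0.82, adjusted p = 0.0906 by limma). It passed when each gene was represented by 1 probeset (adjusted p = 0.0414) and when arrays were weighted by their quality (adjusted p = 0.0258), both by limma. Slc22a26 in HZ mice was 1.14 below the midpoint on the log2 scale (difference -1.14, interval -1.88 to -0.40, adjusted p = 0.394 by limma), and Slc22a27 gave -0.87 (-1.45 to -0.29, adjusted p = 0.431). Slc22a29 gave -0.20 (adjusted p = 0.794) and the shared probeset 0.13 (adjusted p = 0.879), again by limma.

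No member passed in VPA against saline by limma, where 8.61% of all probesets passed and 9281 probesets had an unadjusted p under 0.05. Slc22a26 averaged 8.91 ± 1.71 in KO VPA mice and 10.21 ± 1.85 in KO saline mice, 6.79 ± 0.91 in HZ VPA mice and 7.08 ± 1.14 in HZ saline mice, and 6.36 ± 0.35 in WT VPA mice and 6.82 ± 0.82 in WT saline mice (SD, n = 8 each). VPA minus saline was -1.30 in KO, -0.29 in HZ and -0.45 in WT mice, and 19 of 24 VPA mice lay below the saline mean of their genotype. Slc22a27 differed by -0.50 in KO, -0.34 in HZ and -0.18 in WT mice, and Slc22a29 by -0.12, -0.13 and -0.12 in the same order. The KO difference of Slc22a26 had an interval of -2.50 to -0.09 and that of Slc22a27 one of -1.45 to 0.44. Both intervals use 1 spread pooled over the 6 groups. KO mice spread more widely than HZ and WT mice for both genes, so these intervals are too narrow for KO mice. That of Slc22a26 is therefore not read as clear of 0.

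Pooled VPA minus saline was positive for 2 members, Slc22a7 and Slc22a18. Slc22a7 averaged 9.03 ± 0.57 in KO VPA mice and 8.47 ± 0.36 in KO saline mice, 9.77 ± 0.47 in HZ VPA mice and 9.43 ± 0.33 in HZ saline mice, and 9.38 ± 0.41 in WT VPA mice and 9.26 ± 0.29 in WT saline mice (SD, n = 8 each). The pooled VPA minus saline difference was 0.34 (SE 0.12), from 0.56 in KO and 0.34 in HZ to 0.12 in WT mice, and 5 of 8 KO VPA mice were above every KO saline mouse. The pooled difference of Slc22a23 was -0.09 (SE 0.04), with 18 of 24 VPA mice below the saline mean of their genotype. Slc22a30 and the shared probeset had pooled differences of -0.08 and -0.06, and Slc22a18 had 0.05 (SE 0.07), from 0.24 in KO, -0.16 in HZ and 0.06 in WT mice, with 14 of 24 VPA mice above the saline mean of their genotype, as many as for Slc22a7.

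Among the 16 other Slc22 probesets, 2 passed in VPA against saline, where 8.61% of all probesets passed. Slc22a15, a carrier of zwitterions in humans, was 0.31 higher (SE 0.06, adjusted p = 0.000225 by limma) and Slc22a13, a urate and nicotinate transporter in humans, fell by 0.12 (SE 0.04, adjusted p = 0.0413 by limma). Both also passed among HZ mice alone, at 0.36 (adjusted p = 0.0125) and -0.36 (adjusted p = 0.000642) by limma, where 10.5% of all probesets passed.

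The VPA contrast moved together with clock genes. An index of clock phase per mouse, the mean z score of Arntl, Clock, Cry1 and Nfil3 minus that of Dbp, Tef, Hlf, Per1, Per2, Per3, Nr1d1 and Nr1d2, averaged -0.26 in KO VPA mice and -0.99 in KO saline mice, 1.78 in HZ VPA mice and -2.18 in HZ saline mice, and 2.13 in WT VPA mice and -0.48 in WT saline mice. With this index as a covariate VPA minus saline became 0.68 for Slc22a7, -1.01 for Slc22a26 and -0.66 for Slc22a27, and no probeset of the array passed for VPA. The index did not overlap between treatments in HZ mice (0.88 to 2.62 with VPA, -2.87 to -1.41 with saline) or WT mice (1.12 to 3.39 and -1.37 to 1.02). In KO mice it did (-1.65 to 0.73 and -1.86 to 0.34). VPA and the index therefore cannot be told apart in this fit, and nothing is read from its VPA values. With the covariate 4 of 8 members passed in KO against WT, where 262 of 35556 probesets passed (1046 without it). The differences were 3.17 for Slc22a26, 2.79 for Slc22a27, 0.59 for Slc22a29 and -0.77 for Slc22a7. The index also differed between KO VPA mice (-0.26) and WT VPA mice (2.13), so nothing is read from this count either.

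Whether VPA acted differently by genotype was tested as an interaction. No member passed, where 29 of 35556 probesets did (0.0816%). An unadjusted p under 0.05 was reached by 0 of the 8 members and by 2806 probesets in all. The lowest adjusted p was 0.703 by limma, for Slc22a18, followed by 0.782 for Slc22a30, 0.820 for Slc22a7 and 0.864 for Slc22a26. The VPA effect in KO minus that in WT mice was -0.84 for Slc22a26 with an interval of -2.55 to 0.86, and 0.44 for Slc22a7 with an interval of -0.14 to 1.02. The intervals are wide, so differences of these sizes between genotypes were not detectable with 8 mice per group.

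KO mice were far from alike in the members that rose. For Slc22a26 the 8 KO VPA mice, replicates 1 to 8, had 6.52, 9.67, 9.73, 10.72, 11.25, 8.42, 7.92 and 7.04. The 8 KO saline mice had 6.58, 11.34, 10.88, 11.90, 11.48, 11.12, 8.29 and 10.07. Of the 16 KO mice, 6 thus lay within the range of all WT mice, replicates 1, 6, 7 and 8 of KO VPA and replicates 1 and 7 of KO saline, and the other 10 lay above it. Replicate 1 of each treatment, the lowest 2 for Slc22a26, had 6.57 in KO VPA and 5.62 in KO saline for Slc22a27. The SD of Slc22a26 was 1.71 in KO VPA mice against 0.35 in WT VPA mice, and 1.85 in KO saline mice against 0.82 in WT saline mice.

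Slc22a26 and Slc22a27 followed each other from mouse to mouse. The relation was computed on deviations from the group mean, within each genotype over 16 mice, after values had been looked at, as 1 of 30 relations among the 5 cluster probesets, with 100000 permutations for each p. In KO mice r was 0.95 and rho 0.92 (permutation, adjusted p = 0.0001 for r and 0.00015 for rho), and r without the 2 mice farthest from the median of Slc22a26 was 0.93. In every relation the 2 farthest mice were picked by 1 of the 2 genes only. In HZ mice r was 0.93 and rho 0.79 (permutation, adjusted p = 0.00015 and 0.00199), and 0.85 without the 2 farthest. In WT mice r was 0.82 and rho 0.53 (permutation, adjusted p = 0.000471 and 0.077), and r fell to 0.58 without those 2 mice, so the WT relation rests in part on them. The smallest p these permutations can give is 1e-05.

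Slc22a29 followed Slc22a26 in KO mice (r 0.85, rho 0.88, permutation adjusted p = 0.00018 and 0.000225, r 0.86 without the 2 farthest) and in HZ mice (r 0.80, rho 0.80, permutation adjusted p = 0.000833 and 0.0015, r 0.81). In WT mice, where both genes were low, r was 0.48 and rho 0.54 (permutation adjusted p = 0.12 and 0.0752, r 0.56). The shared probeset and Slc22a30 formed a second pair, with r 0.94 in KO, 0.90 in HZ and 0.81 in WT mice, and rho 0.94, 0.88 and 0.84 (permutation adjusted p between 0.0001 and 0.000833 for r and between 0.00015 and 0.00085 for rho, r 0.85, 0.83 and 0.74 without the 2 farthest). Slc22a30 is 1 of the genes on the shared probeset, so this relation may be built in. Relations of other genes to the 2 probesets are not independent of each other. Between Slc22a26, Slc22a27 or Slc22a29 and this second pair all 6 relations were negative in KO mice, from r -0.20 for Slc22a29 with the shared probeset (rho -0.28, permutation adjusted p = 0.52 and 0.409, r -0.23 without the 2 farthest) to r -0.59 for Slc22a27 with Slc22a30. This last relation had r -0.59 and rho -0.63 (permutation adjusted p = 0.0283 and 0.0328, r -0.52 without the 2 farthest). Those 2 mice were picked by Slc22a27, so replicate 4 of KO VPA, lowest for Slc22a30 at 10.40, stayed in. In HZ mice their r was 0.10 and rho 0.09 (permutation adjusted p = 0.752 and 0.782, r 0.03) and in WT mice r was -0.26 and rho -0.33 (permutation adjusted p = 0.485 and 0.335, r -0.54). The difference between genotypes was not tested.

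**Figure D5:**
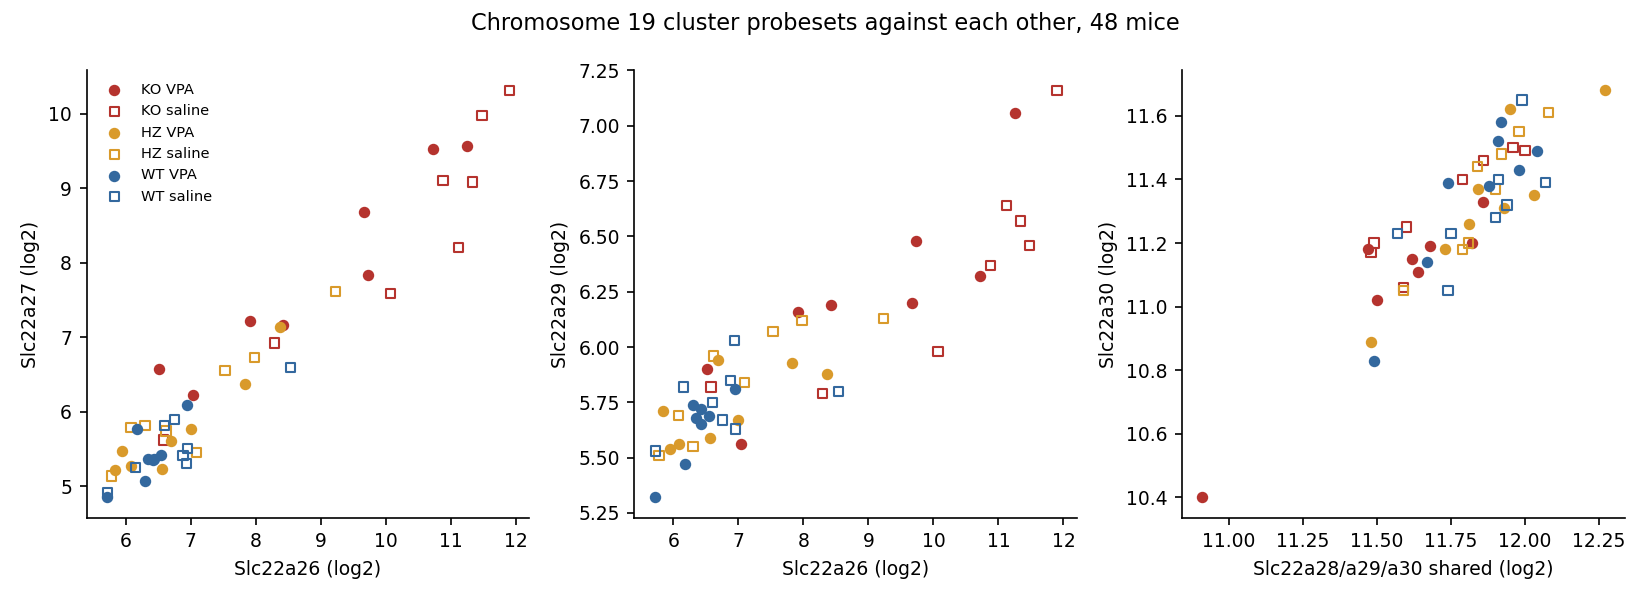
Log2 expression of Slc22a27 against Slc22a26 (left), Slc22a29 against Slc22a26 (middle) and Slc22a30 against the shared probeset (right), one point per mouse (48 mice, VPA filled circles, saline open squares, colours for KO, HZ and WT). Slc22a27 climbs with Slc22a26 up to the KO saline mouse at 11.90 and 10.31, and the KO VPA mouse at 10.91 and 10.40 sits apart at the lower left of the right panel.

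Outside the family, the genes most like Slc22a26, Slc22a27 and Slc22a29 over the 48 mice were the same 3. Slc22a26 had Pearson's r of 0.89 with Hao2, a peroxisomal hydroxy acid oxidase, 0.89 with Sult3a1, a sulfotransferase, and 0.88 with Cyp2a22, a cytochrome P450. Slc22a27 had 0.92 with Sult3a1, 0.92 with Cyp2a22 and 0.90 with Hao2, and Slc22a29 had 0.89 with Hao2, 0.85 with Sult3a1 and 0.84 with Cyp2a22. These correlations share the 6 groups and the arrays and are descriptions. On deviations from the group means, Slc22a26 had Cyp2a22 (0.81), Hao2 (0.80) and Sult3a1 (0.77) as its nearest genes. Slc22a27 then had Sult3a1 (0.84), Cyp2a22 (0.84) and Trim24 (0.80), and Slc22a29 had Hao2 (0.80), Sult3a1 (0.73) and Dlat (0.72).

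Slc22a7 was most like Aox3, an aldehyde oxidase (0.76), P2rx4, an ATP-gated channel (0.76), and C8a, a complement component (0.75), and on deviations most like 3 other genes, Adgrf1 (0.71), Ddx11 (0.68) and 1700001L05Rik (0.67). The likeness of Slc22a18 was with Shmt2, a mitochondrial enzyme of one-carbon metabolism (0.93), Masp2, a protease of the lectin pathway (0.91), and Med16, a Mediator subunit (0.91), and it stood at 0.93 with Shmt2 on deviations too. Its deviations also had r 0.68 with the first principal component of all deviations, which held 18.2% of their variance, while Slc22a30 and the shared probeset both had -0.53. Slc22a23 was most like Wwc1 (0.71), Adarb1 (0.68) and Znrf3 (0.65), Slc22a30 like Phf20l1 (0.74), Atrnl1 (0.72) and Cspp1 (0.72), and the shared probeset like Ugt2b5, a glucuronosyltransferase (0.76), Phf20l1 (0.74) and Lamp2 (0.74).

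Hao2, Sult3a1 and Cyp2a22 belong to a list of genes known to be higher in female than in male mouse liver, and the list was counted as a companion. In KO against WT, 14 of its 16 measured genes were higher and none lower (1.37% of all probesets were higher and 1.57% lower, median difference 1.40, against 0.01 over all probesets), with Cyp2c38 at 1.15 (adjusted p = 1.61e-05 by limma) and Slco1a4, an organic anion transporter of another family, at 1.20 (adjusted p = 1.72e-06) as the brightest. All 16 measured genes of the list known to be higher in male liver were lower (median -1.59), with Cyp4a12a at -2.16 (adjusted p = 0.00587 by limma) and Cyp4a12b at -2.10 (adjusted p = 0.00528). Many genes of both lists are among those the study itself reported as changed in KO mice. The counts of both lists were thus in part fixed beforehand, and nothing is read from them. The mean of the female list ran from 7.09 to 10.35 in KO mice, from 6.70 to 7.92 in HZ mice and from 6.79 to 7.71 in WT mice.

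The 2 KO mice with the lowest Slc22a26 were also the lowest KO mice for the female list. Replicate 1 of KO VPA, at 6.52 for Slc22a26, had a female list mean of 7.09 and a male list mean of 11.38, and replicate 1 of KO saline, at 6.58, had 7.32 and 11.24. Replicate 5 of KO VPA, at 11.25 for Slc22a26, had 10.35 and 9.31, and replicate 4 of KO saline, at 11.90, had 9.19 and 8.14. In the 2 mice with the lowest Slc22a26 the female list lay inside the WT range. In the other 4 KO mice with Slc22a26 inside the WT range it lay above every WT mouse, at 8.38, 8.18 and 7.88 in replicates 6, 7 and 8 of KO VPA and 7.94 in replicate 7 of KO saline. WT mice ran from 11.33 to 11.75 for the male list, and 5 of those 6 KO mice lay below that range and 1, replicate 1 of KO VPA, inside it. Of the 10 measured genes of the growth hormone axis, 3 were lower in KO mice and none higher (1.57% and 1.37% of all probesets), the receptor Ghr (-0.15, adjusted p = 0.019 by limma), Stat5a (-0.23, adjusted p = 0.0074) and the repressor Bcl6 (-1.14, adjusted p = 0.01). The rest did not pass and went both ways, Socs2 (0.61), Cish (0.61), Onecut1 (0.49), Hnf4a (0.05), Jak2 (0.0), Igf1 (-0.1) and Stat5b (-0.12). The median of this list was -0.05. The part of these lists in the result was not tested.

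Signal of other tissues was checked because several members are known from kidney. None of the 6 measured kidney tubule markers passed in KO against WT (2.94% of all probesets passed) or in VPA against saline (8.61%). Nothing is read from this count. The mean of these markers lay between 5.94 and 6.35 in KO mice, 5.93 and 6.23 in HZ mice and 5.96 and 6.32 in WT mice, with Slc34a1 averaging 6.67 and Umod 5.81 over all mice. Hepatocyte markers averaged 13.88 to 14.12 in KO mice, 13.85 to 14.06 in HZ mice and 13.92 to 14.09 in WT mice. Over all the marker lists, 4 genes passed in KO against WT, where 2.94% of all probesets passed. All 4 were lower, Alas2 of 2 measured erythroid markers (-1.24), Sox9 of 4 cholangiocyte markers (-0.30), Cyp2f2 of 3 periportal markers (-0.29) and Cela1 of 5 pancreas markers (-0.17). In VPA against saline 8.61% of all probesets passed. Higher with VPA were 3 of 6 Kupffer cell markers, 2 of 4 endothelial markers, Lrat (0.39) of 4 stellate cell markers and Sox9 (0.43). Lower with VPA were 3 of 6 pericentral markers, Slc1a2 (-0.57) among them, and Pck1 (-0.72), Tat (-0.18), Slc4a1 (-0.21) and Epcam (-0.12), and the part of these markers in the result was not tested. The Wfs1 probeset (8.01 to 8.67 in KO, 8.10 to 8.84 in HZ and 7.94 to 8.98 in WT mice) covers exons that the mutant allele keeps and therefore does not check the genotype labels. No 2 arrays were identical, array pairs correlated between 0.971 and 0.994, and array medians lay between 6.90 and 7.03.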

How the data were processed

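Liver RNA of 48 mice was hybridised to 1-colour Affymetrix Mouse Gene ST arrays, and the authors deposited RMA-summarised, quantile-normalised log2 values per probeset, made with Affymetrix Expression Console 1.1.2800.28061. The values were used as deposited. No detection calls or probe values were used here, so the number of arrays limits the precision. Groups came from the sample titles. Probesets were named from the platform annotation: 21789 had 1 symbol, 1621 several and 12146 none. Named genes were every probeset with a member as its 1 symbol, the shared probeset, other Slc22 genes that were called or among the 3 brightest, and the 3 most correlated genes per member.

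Members and gene lists were chosen with earlier results of these data known. limma 3.58.1 (R 4.3.3, lmFit and eBayes) was fitted with 6 group means and 42 residual degrees of freedom, and called means a Benjamini-Hochberg adjusted p under 0.05 over all probesets. The two-way layout follows the study's methods. The fit was tested on simulated data. Correlations, the likeness to other genes and KO against HZ were examined after the data had been seen. HZ against WT within each treatment used exact permutation tests (numpy 2.4.6), adjusted with scipy 1.17.1. Other p-values of single genes came from limma, and those of correlations from random permutations. Promoters came from RefSeq (GRCm38.p6) for 8 of the 9 members and were aligned with Biopython 1.88. Npas2 had no probeset of its own and was left out of the clock index. Alternatives were array weights, a trended robust prior, median centring, a floor of 5 on the group mean, 1 probeset per gene, only the groups compared, the replicate number as a block, the clock index, means of unlogged values, and leaving out each array.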

Additional observations from a re-analysis of the deposited data

Results flagged for a closer look

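In 4 of the 48 combinations of member probeset and group, 1 mouse stood apart by Dixon's test, which chance alone flags in about 1 in 20 groups. Slc22a7 was 10.16 in replicate 4 of HZ saline, where the next highest mouse had 9.54. Slc22a26 was 8.54 in replicate 4 of WT saline, where the next had 6.95, and the same mouse had the highest Slc22a27 of its group, 6.59. Replicate 4 of KO VPA was lowest for the shared probeset of Slc22a28, Slc22a29 and Slc22a30, at 10.91 against 11.47 for the next mouse, and for Slc22a30, at 10.40 against 11.02. That mouse was among the higher ones for Slc22a26, at 10.72.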

How the results depend on the processing

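KO against WT gave 4 members under each of the 8 other fits and in all 48 fits without 1 array (range 4 to 4), and HZ against WT and the interaction gave 0 throughout (range 0 to 0). Over all probesets KO against WT passed for 1046 in the main fit, and from 262 (clock index) to 1231 (replicate block) with all arrays kept. HZ against WT then passed for 1 to 6 probesets and the interaction for 0 to 133. The fit with 1 probeset per gene holds 7 members, without the shared probeset, and means of unlogged values give differences with no test. For HZ against the midpoint the 0 members became 1, Slc22a7, with array weights and with 1 probeset per gene, and stayed 0 without each array. For VPA against saline the 0 members became 2 with array weights (Slc22a7 and Slc22a23), 1 with median centring and 1 with 1 probeset per gene (Slc22a7 in both), and 0 to 1 without 1 array, the 1 being Slc22a7 in 9 of 48 fits (without WT saline replicate 2, HZ saline replicate 4, WT VPA replicates 4 and 7, HZ VPA replicates 2, 5 and 7, or KO VPA replicates 4 and 8). The midpoint passed for 48 of 35556 probesets with array weights and 17 of 19938 with 1 probeset per gene. VPA passed for 4349 of 35556 probesets with array weights, 2731 with median centring and 2523 of 19938 with 1 probeset per gene. Nothing is read from the VPA counts of members, and the cause of the changes was not tested. Signs turned only for differences near 0. Under settings other than leaving out an array these were Slc22a18 in HZ minus WT (-0.067 with the clock index), and, for the VPA effect in KO minus that in WT, Slc22a23 (0.036 with array weights, 0.014 with median centring) and Slc22a29 (-0.003 with the clock index). Without 1 array they ranged from -0.016 to 0.048 (Slc22a18), -0.026 to 0.007 (Slc22a23) and -0.022 to 0.046 (Slc22a30) for HZ minus WT, from -0.055 to 0.009 for Slc22a18 in KO minus WT, from -0.004 to 0.058 for Slc22a18 against the midpoint, and from -0.031 to 0.039 (Slc22a23) and -0.113 to 0.12 (Slc22a29) for the VPA effect in KO minus that in WT.

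Replicate numbers were not taken to pair mice. Of the same-number pairs of arrays, 53 of 120 had deviations correlated over 0.1, and 11 of 48 arrays were closest to their own number. The mean correlation was 0.055 for the same number and -0.008 for other numbers, so some structure shared by number is not excluded. With the replicate number as a block the members called stayed at 4, 0, 0, 0 and 0 for KO against WT, HZ against WT, the midpoint, VPA and the interaction. Over all probesets the block raised those called from 1046 to 1231 for KO against WT and from 3062 to 4004 for VPA.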
